A study of Saccharomyces cerevisiae with 6 samples.

Results

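The 9 genes described here encode transcription factors for respiratory growth in budding yeast (Saccharomyces cerevisiae), and they were taken by name, with no threshold on a measured value, although earlier results of these data were known when they were chosen. They are CAT8, SIP4, ADR1, RDS2, HAP1, HAP2, HAP3, HAP4 and HAP5, which make 9 of the 6007 protein-coding rows in a table of 9891 features. RNA-seq read counts were available for 3 libraries of purified quiescent cells and 3 libraries of log-phase cells, whose transcriptomes the study set side by side. Quiescent cells came from stationary cultures at day 7, as the dense fraction collected on Percoll gradients and purified on a fresh gradient. Log-phase cells were growing actively at an OD600 between 0.8 and 1.0. Both groups were the same strain, YCH406, grown at 30 °C in YPD with added adenine, a rich glucose medium. It is MATa and carries his3∆200, leu2∆1, ura3-52 and trp1∆. Its chromosomal histone pairs hta1-htb1 and hta2-htb2 are replaced by LEU2 and TRP1, and HTA1-HTB1 are supplied by plasmid pSAB6 and, with Flag-tagged HTA1, by plasmid pZS145. The RNA polymerase II subunit Rpb3 carries a 9Myc tag. Quiescent and log cells therefore share every allele, and the values hold for a single strain. The groups differ in growth state together with time in culture and the gradient purification described for quiescent cells. These differences cannot be told apart here.

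Yeast ferments glucose and keeps the genes for respiration and gluconeogenesis repressed while glucose lasts. When it runs out, the Snf1 kinase is active, the repressor Mig1 is inactivated, and activators turn on the genes that use ethanol, acetate, lactate, glycerol and fatty acids. Cat8, Sip4 and Rds2 are zinc cluster proteins that act on gluconeogenesis and glyoxylate cycle genes, and Adr1 is a zinc finger protein that acts on genes for ethanol, glycerol and fatty acid use. Hap2, Hap3 and Hap5 bind DNA together at CCAAT boxes, and Hap4 joins them and provides the activation domain. Hap1 is a zinc cluster protein that responds to heme and acts on genes for cytochromes and sterols.

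Sites of these regulators were looked for upstream of the 9 genes themselves, in the 500 bases before each start codon of the R64 reference (RefSeq). The sequences below are the 10 stretches of 30 bases that hold the matches for Mig1, the CCAAT box or the Adr1 core, written 5′ to 3′ on the strand of the gene with the matches in capitals.
CAT8, chrXIII:831521-831550, minus strand: tATTTTGTGGGGtacgaaagcatgATTGGt
CAT8, chrXIII:831620-831649, minus strand: tttaatttgcctATTGGtaaatatttttgc
HAP4, chrXI:231950-231979, plus strand: ctctctaaaCCCCAGTTTTAtatcgtatat
HAP4, chrXI:232122-232151, plus strand: ccacacatatttATTGGtctcctagtacat
ADR1, chrIV:894882-894911, plus strand: tgcataaattaaCCAATcattttgctactt
SIP4, chrX:265655-265684, plus strand: tcgaccggtgttTTGGCGgctaaatttaag
RDS2, chrXVI:301490-301519, minus strand: gcATTGGttagggaaagggttttCCAATgg
RDS2, chrXVI:301555-301584, minus strand: tctttgatttgtATTGGttagtatctatgt
HAP3, chrII:182143-182172, minus strand: tagtagctttcCGCCAATcaaactcaagag
HAP3, chrII:182484-182513, minus strand: aacgttaccagtTTGGTGaaaagttggccc

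The first capitals in the first CAT8 stretch and the capitals in the first HAP4 stretch match the Mig1 site, which 2.58% of 6000 promoters of the same length hold. CAT8 and HAP4 were the 2 of the 9 genes with such a match. The CCAAT box (CCAAT, or ATTGG read from the other strand) was upstream of 5 of the 9 genes, namely CAT8, ADR1, RDS2, HAP3 and HAP4, and 62.4% of all promoters hold it. The Adr1 core (TTGGNG on either strand) was upstream of SIP4 and HAP3, and in the first HAP3 stretch it overlaps the CCAAT box. That core is in 51.4% of all promoters. The CSRE, the element that Cat8 and Sip4 bind, and the Hap1 site (CGG, 3 free bases, TA, 1 free base, CGG) gave no match in these windows, and they are in 1.48% and 0.35% of all promoters. Letters that match are a description of the windows and do not show binding.

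Total counts were 8894585 to 12696572 in the quiescent libraries and 10476761 to 14213993 in the log libraries, and a single member had 23 to 6174 reads in a quiescent library and 34 to 3044 reads in a log library. Protein-coding rows held 41.4%, 31.8% and 28.1% of the counts in quiescent replicates 1, 2 and 3, against 72.1%, 66.0% and 64.1% in log replicates 1, 2 and 3. Changes were tested with the edgeR quasi-likelihood test on the counts after TMM scaling, and normalized CPM is a count scaled to its library in that way. TPM is a length-scaled share of all transcripts of a library, rRNA and small RNAs included, so it allows genes to be compared with each other. On the TMM scale the median log2 fold change of all 5608 tested genes, quiescent minus log, was -0.21, and on the log2(TPM + 1) scale it was -0.98. Adding 1 TPM before the log shrinks the changes of genes at low TPM on the latter scale. Values near these medians are those of the middle gene. ACT1 was at -4.02 (SE 0.30) and TDH3 at -5.35 (SE 0.43), so neither could serve as a constant. Known growth state markers followed the labels, as 6 of 6 stationary-phase genes rose (median 6.61) and 6 of 6 growth genes fell (median -4.51).

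Of the 9 transcription factor genes, 7 rose in quiescent cells, 0 fell and 2 did not pass the edgeR test. At an unadjusted p under 0.05, and in DESeq2, 0 fell as well. The risers were SIP4, CAT8, ADR1, HAP2, RDS2, HAP4 and HAP5, and HAP1 and HAP3 did not pass. Among all tested genes, 31.8% rose and 41.0% fell in the same test. All 9 genes passed the filter of a mean TPM of 1 over the 6 libraries, SIP4 through its quiescent libraries. The median log2 fold change of the 9 was that of RDS2, 1.78 (SE 0.23), against -0.21 over all tested genes. On the log2(TPM + 1) scale, tested with limma, the same genes gave 4 that rose and 2 that fell, where 14.2% of all genes rose and 60.1% fell. SIP4, CAT8, ADR1 and HAP2 rose on both scales. In normalized CPM every quiescent library lay above every log library for 7 of the 9 and below for 0, where 33.8% of all tested genes lay above and 44.0% below. In TPM 4 of the 9 lay above and 2 below without overlap, where 14.9% of all tested genes lay above and 62.8% below. In bulk RNA a smaller number of cells of a kind and less RNA per cell cannot be told apart, and all values are shares of the sequenced RNA.

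**Figure D1:**
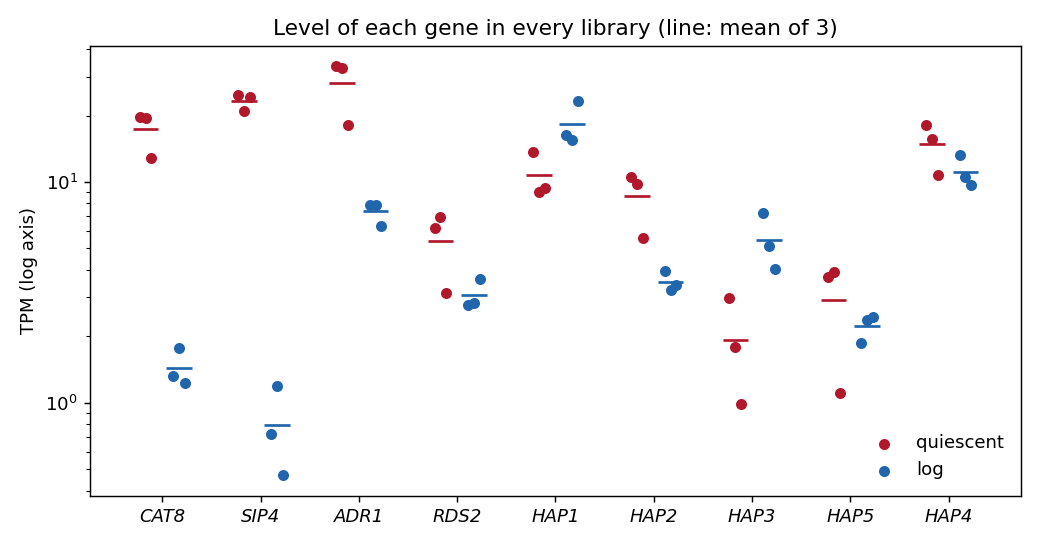
TPM of each gene (y axis, log scale) in each of the 3 quiescent and 3 log libraries, with 1 point per library and a line at the mean. CAT8, SIP4, ADR1 and HAP2 are higher in every quiescent library than in any log library, HAP1 and HAP3 are lower in every quiescent library, and RDS2, HAP4 and HAP5 overlap.

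CAT8 (YMR280C, chromosome XIII, 827028 to 831329, minus strand) encodes the activator of gluconeogenic genes whose own expression is repressed by glucose. It had 299, 347 and 319 normalized CPM in quiescent replicates 1, 2 and 3, against 12.7, 16.5 and 11.2 normalized CPM in log replicates 1, 2 and 3. The groups lay far apart, and within each group the 3 libraries were close together. This was a 23.9-fold rise, a log2 fold change of 4.58 (SE 0.23, adjusted p = 1.51e-07 in the edgeR quasi-likelihood test). In TPM, CAT8 averaged 17.3 ± 3.84 in quiescent cells and 1.44 ± 0.289 in log cells (SD, n = 3 each). Ordered by fold change from the top, CAT8 was at rank 156 of the 5608 tested genes.

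SIP4 (YJL089W, chromosome X, 265926 to 268415, plus strand) encodes a partner of the Snf1 kinase complex that binds the same element as Cat8, and Cat8 is known to act on the SIP4 gene. It had the largest fold change of the 9, at rank 78 of the tested genes. SIP4 had 2185, 2486 and 3245 reads in quiescent replicates 1, 2 and 3, against 57, 77 and 34 reads in log replicates 1, 2 and 3. Scaled to the libraries this was 218, 217 and 348 normalized CPM in quiescent cells and 3.99, 6.41 and 2.48 normalized CPM in log cells. Quiescent replicate 3 was the highest of its group and log replicate 3 the lowest of its own. The log2 fold change was 5.93 (SE 0.39, adjusted p = 5.20e-07 in the edgeR test), a 61.0-fold rise that ranged from 5.72 to 6.33 on the log2 scale when single libraries were left out. In TPM it averaged 23.4 ± 2.06 in quiescent cells and 0.794 ± 0.366 in log cells (SD, n = 3 each).

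ADR1 (YDR216W, chromosome IV, 895035 to 899006, plus strand) encodes the zinc finger activator, and its level in log cells was above those of CAT8 and SIP4. It had 469, 539 and 412 normalized CPM in quiescent replicates 1, 2 and 3, against 69.6, 67.8 and 53.3 normalized CPM in log replicates 1, 2 and 3. The groups did not overlap, and the log2 fold change was 2.90 (SE 0.22, adjusted p = 1.36e-06 in the edgeR test). With 28.1 ± 8.65 TPM in quiescent cells and 7.37 ± 0.899 TPM in log cells (SD, n = 3 each), it had the highest mean TPM of the 9 genes in quiescent cells and the third highest in log cells. On the TPM scale quiescent replicate 3 stood lower, at 18.1 TPM beside 33.4 and 32.7 TPM in replicates 1 and 2.

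RDS2 (YPL133C, chromosome XVI, 299888 to 301228, minus strand) encodes a regulator of gluconeogenic genes that Snf1 is known to act on. It had 29.3, 38.5 and 24.3 normalized CPM in quiescent replicates 1, 2 and 3, against 8.26, 8.24 and 10.3 normalized CPM in log replicates 1, 2 and 3. It rose by 1.78 (SE 0.23, adjusted p = 7.45e-05 in the edgeR test) without overlap. In TPM the groups overlapped, since quiescent replicate 3 had 3.15 TPM and log replicate 3 had 3.64 TPM. On the log2(TPM + 1) scale the log2 fold change was 0.60 (SE 0.27) and missed the threshold (limma adjusted p = 0.0531).

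HAP1 (YLR256W, chromosome XII, 646415 to 650923, plus strand) was the most abundant of the 9 in log cells. It had 218, 169 and 243 normalized CPM in quiescent replicates 1, 2 and 3, against 163, 152 and 222 normalized CPM in log replicates 1, 2 and 3. These ranges overlapped, and the log2 fold change of 0.23 (SE 0.22) did not pass (edgeR adjusted p = 0.371). In TPM it had 13.7, 9.05 and 9.39 in quiescent cells and 16.3, 15.6 and 23.2 in log cells, without overlap and lower in quiescent cells. The direction thus turned with the scale, to -0.73 (SE 0.29, limma adjusted p = 0.0367) on the log2(TPM + 1) scale, and to 0.72 with an upward call when only rows of at least 10 TPM were tested (edgeR adjusted p = 0.0160). Relative to the median gene HAP1 was higher in quiescent cells in each of the 15 settings run, by 0.26 to 1.23 on the log2 scale. The settings reuse the same libraries, and this offset was not tested. On the TMM scale 59.8% of all tested genes had a lower fold change than HAP1.

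The HAP1 row has a feature that the other 8 lack. In the S288C reference a Ty1 retrotransposon lies at the 3′ end of HAP1, and the annotated gene runs 100 bases into its long terminal repeat (chromosome XII, 650824 to 651157), which is 2.22% of the gene. Of the 4460 stretches of 50 bases in the gene, 1.23% occur again in the genome, from base 4406 to its last base at 4509. For the other 8 genes 0 such stretches recur. None of the 9 genes overlaps another annotated gene, and each has 1 exon. Whether strain YCH406 carries the Ty1 insertion, and how repeated reads were assigned, was not tested.

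The genes of the Hap complex did not move as a unit. HAP2 (YGL237C, chromosome VII, 52731 to 53528, minus strand), a DNA-binding subunit, had 29.6, 32.5 and 25.5 normalized CPM in quiescent replicates 1, 2 and 3, against 7.00, 5.58 and 5.75 normalized CPM in log replicates 1, 2 and 3. It rose by 2.25 (SE 0.22, adjusted p = 7.24e-06 in the edgeR test), and the groups were separate in CPM and in TPM. HAP5 (YOR358W, chromosome XV, 1010161 to 1010889, plus strand), which pairs with Hap3 through a histone fold, had 9.58, 11.8 and 4.61 normalized CPM in quiescent cells and 3.01, 3.75 and 3.79 normalized CPM in log cells. Quiescent replicate 3 was the low library, although in normalized CPM still above the log libraries. HAP5 rose by 1.30 (SE 0.38, edgeR adjusted p = 0.0112), with 0.0017 to 0.0482 as the range of the adjusted p when single libraries were left out. In TPM the groups overlapped, as quiescent replicate 3 had 1.10 TPM and the log libraries 1.86, 2.38 and 2.46 TPM. On the log2(TPM + 1) scale the call was lost at 0.18 (SE 0.30, limma adjusted p = 0.608).

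HAP3 (YBL021C, chromosome II, 181660 to 182094, minus strand) encodes the histone fold partner of Hap5. It had 46, 37 and 23 reads in quiescent replicates 1, 2 and 3, against 100, 58 and 51 reads in log replicates 1, 2 and 3. Its normalized CPM of 4.59, 3.23 and 2.47 in quiescent cells and 7.00, 4.83 and 3.72 in log cells overlapped, and the log2 fold change of -0.59 (SE 0.39) did not pass (edgeR adjusted p = 0.202). In TPM the quiescent libraries had 2.99, 1.79 and 0.990 and the log libraries 7.27, 5.15 and 4.04, without overlap. On the log2(TPM + 1) scale HAP3 fell by 1.18 (SE 0.28, limma adjusted p = 0.00124), where 60.1% of all tested genes fell. Every setting gave HAP3 a negative fold change, from -1.18 to -0.31. On the TMM scale it lay 0.38 below the median gene, and on the log2(TPM + 1) scale 0.19 below it.

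HAP4 (YKL109W, chromosome XI, 232227 to 233891, plus strand), the activating subunit whose level is known to limit the complex, had 107, 108 and 102 normalized CPM in quiescent replicates 1, 2 and 3, against 48.7, 37.8 and 34.2 normalized CPM in log replicates 1, 2 and 3. The quiescent libraries were within a few CPM of each other, and all lay above the log libraries. HAP4 rose by 1.39 (SE 0.19, adjusted p = 8.57e-05 in the edgeR test), a 2.63-fold rise. In TPM it averaged 14.8 ± 3.78 in quiescent cells and 11.1 ± 1.83 in log cells (SD, n = 3 each). Those groups overlapped, and on the log2(TPM + 1) scale the call was lost at 0.37 (SE 0.29, limma adjusted p = 0.273).

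**Figure D2:**
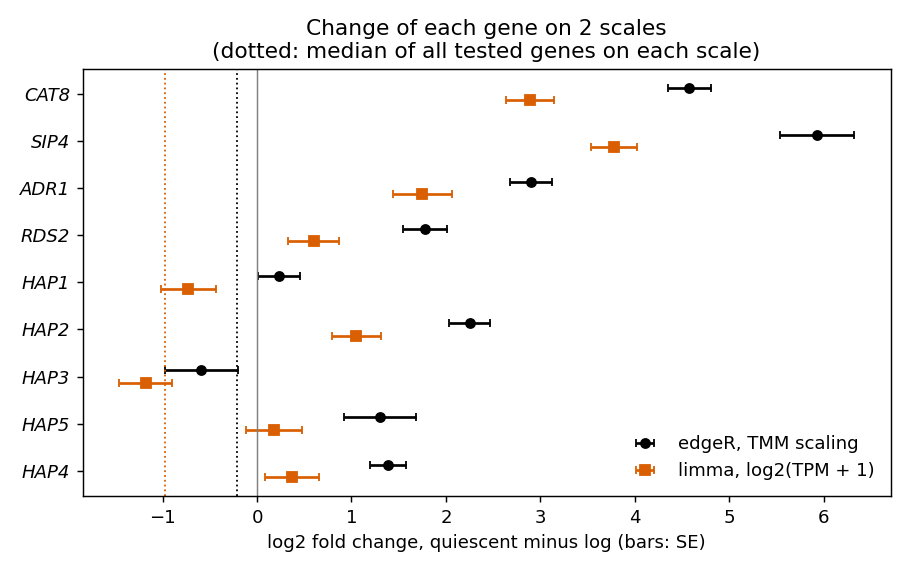
Log2 fold change, quiescent minus log (x axis), of each gene in the edgeR test after TMM scaling and in limma on log2(TPM + 1), with bars of 1 SE and dotted lines at the median of all tested genes. Every gene lies further left on the TPM scale, as does the median gene (-0.98 against -0.21), and HAP1 is at 0.23 on the TMM scale and -0.73 on the TPM scale.

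Position within a library does not depend on scaling between libraries, so each gene was ranked by TPM among the 5608 tested genes of its own library. SIP4 stood at percentile 90.4, 89.7 and 94.1 in quiescent replicates 1, 2 and 3, against 2.53, 3.78 and 1.52 in log replicates 1, 2 and 3. CAT8 stood at 87.3, 88.5 and 89.2 in quiescent cells and 5.81, 7.42 and 5.47 in log cells. Both were above percentile 85 in every quiescent library and among the lowest tested genes of every log library. Genes low in both groups were not ranked, because the filter asks for a mean TPM of 1 over all libraries. SIP4, at 0.794 TPM in log cells, passed it through its quiescent libraries. Low log percentiles are therefore partly set by the filter. ADR1 averaged percentile 92.9 ± 0.797 in quiescent cells and 48.7 ± 4.73 in log cells (SD, n = 3 each), and HAP4 averaged 86.2 ± 0.483 in quiescent cells and 61.1 ± 5.43 in log cells.

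HAP2 moved to percentile 75.6 ± 1.37 in quiescent cells, against 22.9 ± 4.34 in log cells, and RDS2 to 62.1 ± 6.15, against 18.8 ± 4.44 in log cells (SD, n = 3 each). HAP5 was at 42.7, 51.1 and 17.7 in quiescent replicates 1, 2 and 3 and at 9.52, 11.4 and 14.0 in log replicates 1, 2 and 3. In these 7 genes every quiescent library stood above every log library, where 37.3% of all tested genes did so and 40.7% stood below without overlap. Each had an exact permutation p of 0.1 (0.129 after Benjamini-Hochberg adjustment over 9), the smallest raw p that 3 against 3 libraries allow. HAP1 was at 80.5 ± 4.82 in quiescent cells and 73.5 ± 3.05 in log cells, with overlap (exact permutation p = 0.2), and HAP3 at 24.6 ± 10.1 in quiescent cells and 37.2 ± 11.4 in log cells, also with overlap (exact permutation p = 0.3).

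**Figure D3:**
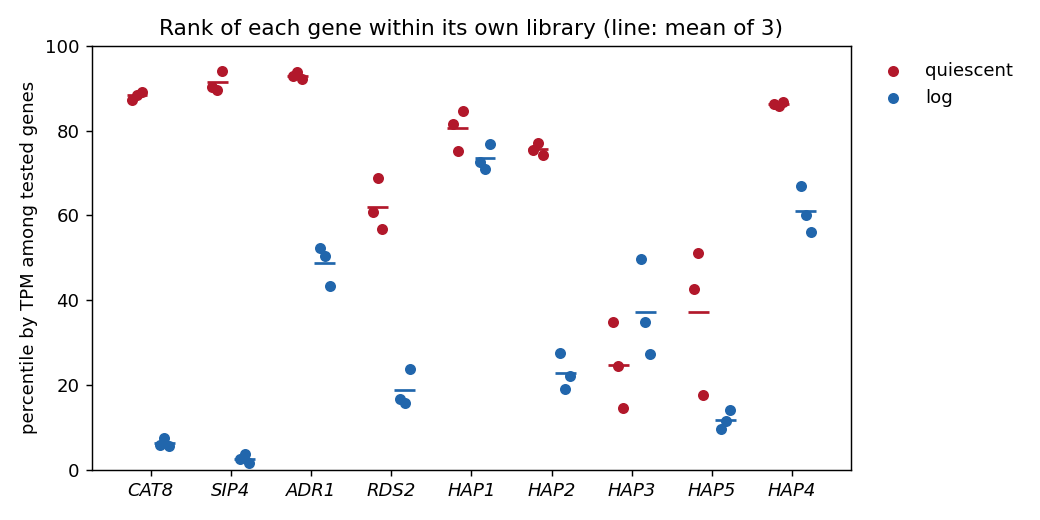
Percentile by TPM among the 5608 tested genes (y axis) of each gene within each quiescent and log library, with a line at the mean of 3 libraries. SIP4 and CAT8 are above percentile 85 in every quiescent library and below 10 in every log library, and HAP1 and HAP3 overlap.

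The order of the genes by mean TPM also differed. In quiescent cells it was ADR1, SIP4, CAT8, HAP4, HAP1, HAP2, RDS2, HAP5 and HAP3, and only SIP4 and CAT8 were neighbours whose ranges did not overlap. In log cells it was HAP1, HAP4, ADR1, HAP3, HAP2, RDS2, HAP5, CAT8 and SIP4. Neighbours overlapped there for ADR1 with HAP3 and for HAP2 with RDS2, and the other 6 neighbouring pairs did not overlap. SIP4 was thus behind only ADR1 in quiescent cells and last in log cells, and HAP3 was last in quiescent cells and behind HAP1, HAP4 and ADR1 in log cells.

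Together the 9 genes had 133, 120 and 86.3 TPM in quiescent replicates 1, 2 and 3, against 55.3, 50.5 and 54.5 TPM in log replicates 1, 2 and 3 (exact permutation p = 0.1). CAT8, ADR1 and SIP4 held 58.5%, 60.8% and 64.1% of that sum in quiescent replicates 1, 2 and 3, against 17.99%, 21.5% and 14.8% in log replicates 1, 2 and 3. These 3 genes had the largest fold changes of the 9 and were joined outside the planned comparisons. A larger joint share in quiescent cells follows from that choice, so no test of it is given. HAP1 held 9.56% ± 1.79 of it in quiescent cells, against 34.3% ± 7.24 in log cells (SD, n = 3 each), the largest share there. The share of HAP3 was 1.63% ± 0.563 in quiescent cells and 10.2% ± 2.87 in log cells, and that of HAP4 was 13.02% ± 0.610 in quiescent cells and 20.8% ± 3.04 in log cells (SD, n = 3 each). RDS2, at 4.69% ± 1.05 in quiescent cells and 5.78% ± 0.841 in log cells, and HAP2, at 7.51% ± 0.914 in quiescent cells and 6.61% ± 0.484 in log cells, overlapped between the groups. The shares of the other 7 genes did not overlap (exact permutation p = 0.1 for each, 0.129 after adjustment over 9).

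**Figure D4:**
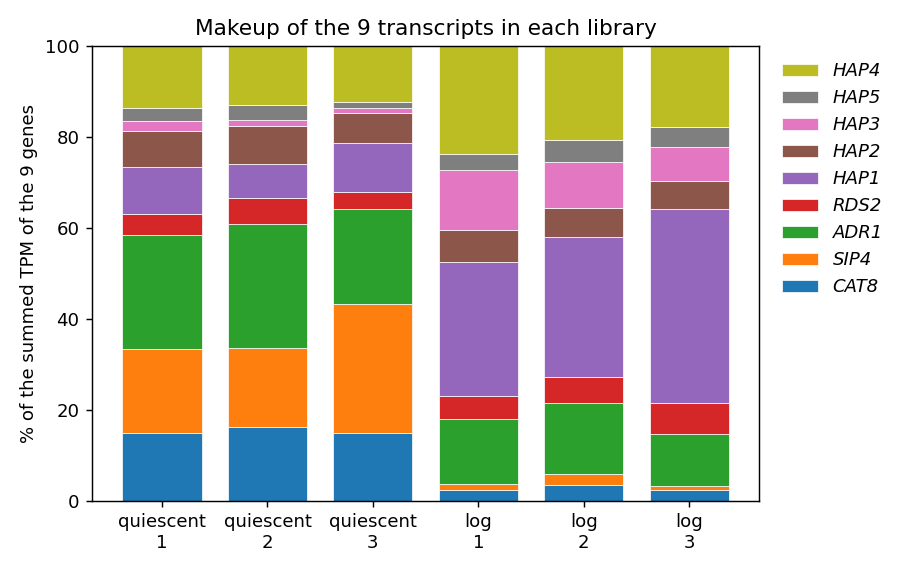
Share of the summed TPM of the 9 genes (y axis, %) held by each gene, as stacked bars for the 3 quiescent and 3 log libraries. CAT8, SIP4 and ADR1 fill 58.5% to 64.1% of the quiescent bars and 14.8% to 21.5% of the log bars, where HAP1 is the largest segment and HAP4 the next. Those 3 genes had the largest fold changes of the 9.

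Within the Hap complex, HAP4 was set against the mean TPM of its 3 DNA-binding partners in the same library. That ratio was 3.16, 3.02 and 4.19 in quiescent replicates 1, 2 and 3, against 3.02, 2.93 and 2.94 in log replicates 1, 2 and 3. The groups overlapped, and the difference of 0.21 on the log2 scale did not pass (exact permutation p = 0.2). The partners moved apart beneath this mean. HAP4 over HAP2 was 1.75 ± 0.167 in quiescent cells and 3.14 ± 0.261 in log cells, and HAP4 over HAP3 was 8.54 ± 2.38 in quiescent cells and 2.09 ± 0.294 in log cells (SD, n = 3 each), so the direction depended on the partner chosen.

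HAP2 over HAP3 was 3.52, 5.47 and 5.63 in quiescent replicates 1, 2 and 3, against 0.545, 0.629 and 0.844 in log replicates 1, 2 and 3. HAP3 transcripts were thus below those of HAP2 in every quiescent library and above them in every log library, per length. HAP5 over HAP3 averaged 1.51 ± 0.579 in quiescent cells and 0.442 ± 0.177 in log cells (SD, n = 3 each), again without overlap. Each ratio without overlap had an exact permutation p of 0.1 (0.140 after adjustment over 7 ratios), and the ratios not of HAP4 were chosen after the values were seen. HAP4 over HAP5, at 6.20 ± 3.08 in quiescent cells and 5.15 ± 1.69 in log cells (SD, n = 3 each), overlapped (exact permutation p = 0.6).

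Genes under these factors were counted from lists of textbook targets. All 14 Cat8 and Sip4 targets of gluconeogenesis, the glyoxylate cycle and acetate or lactate use rose (median 6.07, also 14 of 14 on the TPM scale). The acetate transporter gene ADY2 rose by 11.44 (SE 0.41) and the acetyl-CoA synthetase gene ACS1 by 8.24 (SE 0.45). Of 17 Adr1 targets of ethanol, glycerol and fatty acid use, 16 rose and 0 fell (median 4.90; 15 rose on the TPM scale), led by the peroxisomal catalase gene CTA1 at 8.93 (SE 0.35) and the thiolase gene POT1 at 8.56 (SE 0.44). ADH5 was the exception at 0.42 (SE 0.28, edgeR adjusted p = 0.212). These lists were drawn up with earlier results of these data known, and 31.8% of all genes rose. Several genes of both lists averaged under 1 TPM in log cells and passed the filter through their quiescent libraries. Among them were ADY2 (0.357 TPM), CTA1 (0.791 TPM) and POT1 (0.503 TPM). With no filter on low values, 14 Cat8 and Sip4 targets and 16 Adr1 targets rose (medians 5.91 and 4.74). Each edgeR count of 0 given for a list was also 0 at an unadjusted p under 0.05 and in DESeq2.

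Of the 41 targets of the Hap complex 19 rose and 14 fell (median 0.05, against -0.21 for all tested genes). Tested in TPM, 5 rose and 22 fell, with a list median of -0.95 beside -0.98 for all genes. The shares over all tested genes were 31.8% risen and 41.0% fallen, and in TPM 14.2% risen and 60.1% fallen. SDH2, a succinate dehydrogenase subunit, rose by 3.15 (SE 0.23) and COX7, a cytochrome c oxidase subunit, by 2.50 (SE 0.22). IDH2 (-3.07, SE 0.28) and IDH1 (-2.35, SE 0.22), the subunits of NAD-dependent isocitrate dehydrogenase, fell most. By enzyme, 7 of 9 complex III genes rose and 1 fell, 6 of 8 complex IV genes rose and 0 fell, 3 of 4 complex II genes rose and 0 fell, 0 of 8 ATP synthase genes rose and 6 fell, 3 of 9 citrate cycle genes rose and 5 fell, and 0 of the 3 remaining genes (CYC1, HEM1 and PET9) rose and 2 fell. On the TPM scale these became 2 risen and 2 fallen for complex III, 1 and 2 for complex IV, 2 and 1 for complex II, 0 and 8 for ATP synthase, 0 and 6 for the citrate cycle, and 0 and 3 for the remaining genes. The grouping by enzyme was made after the values were seen.

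Of 12 Hap1 targets, 5 rose and 5 fell (median -0.23), and on the TPM scale 3 rose and 7 fell (median -1.16). All tested genes had medians of -0.21 and -0.98 on these scales. Of them 31.8% rose and 41.0% fell, and on the TPM scale 14.2% rose and 60.1% fell. The medians and the fallen counts of the list were near these values. CYB2, lactate dehydrogenase, rose by 7.66 (SE 0.46) and CTT1, the cytosolic catalase, by 5.37 (SE 0.29). YHB1, a flavohemoglobin, was at -5.96 (SE 0.28) and the sterol gene ERG2 at -3.85 (SE 0.32), and both fell on the TPM scale as well. CYB2, at 0.625 TPM in log cells, and YHB1, at 0.813 TPM in quiescent cells, passed the filter through their higher group. The cytochrome c genes CYC1 (-1.14, SE 0.26) and CYC7 (3.56, SE 0.55) fell and rose, and CYC1, CYT1 and COR1 are also counted among the Hap complex targets. CTT1 is also counted among the stationary-phase markers, and ROX1 among the other factor genes below.

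Upstream of the factors, 6 of 18 genes of the Snf1 kinase and glucose repression rose and 7 fell (median 0.13), which became 1 risen and 11 fallen on the TPM scale (median -0.77). Over all tested genes 31.8% rose and 41.0% fell, and 14.2% rose and 60.1% fell on the TPM scale. The edgeR counts of the list were near those shares. The kinase gene SNF1 itself did not pass at 0.07 (SE 0.19, edgeR adjusted p = 0.761), and lay at -0.87 with a downward call on the TPM scale (limma adjusted p = 0.0133). Among its partner genes, SIP2 rose by 3.01 (SE 0.20) on the TMM scale and by 1.68 on the TPM scale, and SNF4 fell (-1.39, SE 0.19). MIG1, the gene of the repressor, rose by 1.53 (SE 0.23), a call absent on the TPM scale at 0.49 (limma adjusted p = 0.134). The hexokinase gene HXK2 (-5.16, SE 0.31), which takes part in glucose repression, fell most, followed by the corepressor gene TUP1 (-2.84, SE 0.19), by MIG2 (-2.10, SE 0.32) and by CYC8 (-1.65, SE 0.18), the partner of TUP1. These 4 genes fell on the TPM scale too.

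Among 14 other factor genes for carbon source, oxygen and stress responses, 10 rose and 0 fell (median 1.05), and on the TPM scale 5 rose and 2 fell (median 0.03). Beside them, 31.8% of all tested genes rose and 41.0% fell, and on the TPM scale 14.2% rose and 60.1% fell. XBP1 (6.54, SE 0.28), a stress-induced repressor, USV1 (6.40, SE 0.33), GSM1 (4.58, SE 0.21), a zinc cluster protein gene, and GIS1 (3.59, SE 0.28) rose most. XBP1 and GSM1, at 0.803 and 0.901 TPM in log cells, passed the filter through their quiescent libraries. PIP2 (2.04, SE 0.17) and OAF1 (1.27, SE 0.21), whose products form the oleate-responsive activator, also rose, although OAF1 did not pass on the TPM scale (0.23, limma adjusted p = 0.434). ERT1, a zinc cluster gene related to RDS2, did not pass at -0.38 (SE 0.23, edgeR adjusted p = 0.167) and was called downward on the TPM scale (limma adjusted p = 0.00122).

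**Figure D5:**
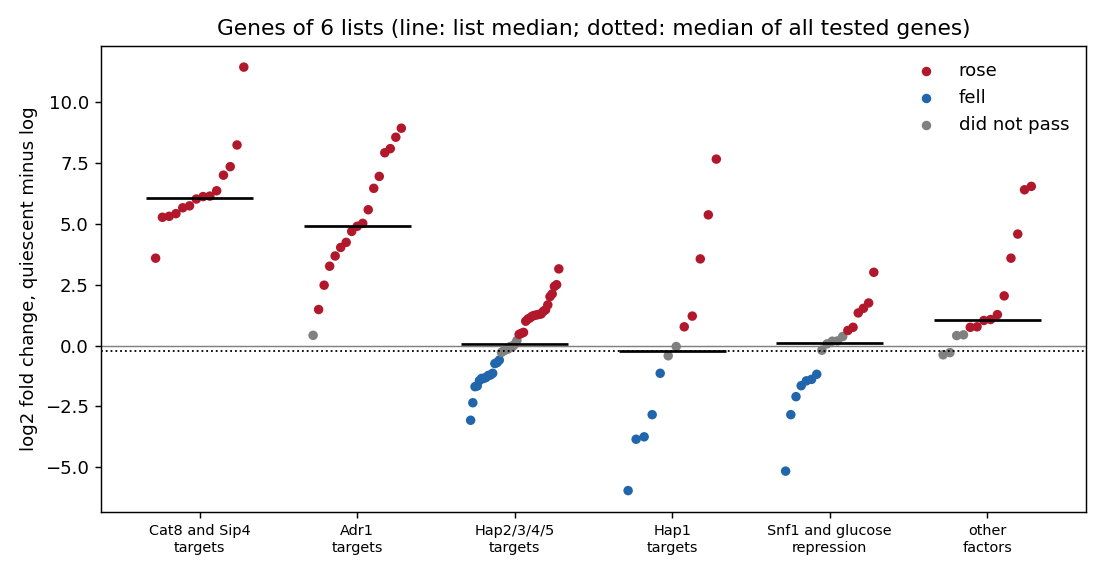
Log2 fold change, quiescent minus log (y axis, edgeR, TMM scaling), of each gene in 6 lists, coloured by whether it rose, fell or did not pass, with a line at each list's median and a dotted line at the median of all tested genes (-0.21). The Cat8 and Sip4 targets (median 6.07) and Adr1 targets (median 4.90) lie above 0, and the Hap complex targets (median 0.05) spread on both sides.

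The genes most like CAT8 and HAP4 over the 6 libraries were found by the root mean square difference of log2(TPM + 1) after each gene's mean was removed. For CAT8 they were YGR161W-C (0.0645), CSM4 (0.0850), a gene of meiotic chromosome movement, and GID8 (0.118), a subunit of the ubiquitin ligase that marks gluconeogenic enzymes. CSM4 had 11.4 ± 2.21 TPM in quiescent cells and 0.628 ± 0.238 TPM in log cells, and GID8 had 19.6 ± 4.49 TPM in quiescent cells and 1.87 ± 0.653 TPM in log cells (SD, n = 3 each). For HAP4 they were YHL008C (0.0525), IGO1 (0.0798), a target of the Rim15 kinase, and ALY2 (0.0942), an arrestin gene. IGO1 had 18.4 ± 4.26 TPM in quiescent cells and 14.6 ± 1.21 TPM in log cells (SD, n = 3 each).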

How the data were processed

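The authors deposited raw read counts per feature with a feature length, per the file headers. Libraries were rRNA-depleted and read on an Ion Proton, per the labels' protocols, and mapped to genome build R64 according to the submitters' processing notes. For the aligner, counter and strand the answer is the same: not given in the sources used here. Antisense reads therefore cannot be told apart. A further 6 columns of per-sample TPM were not used. TPM values come from these counts divided by feature length. No row carried an ERCC name (0 rows). The test took every row whose TPM averaged 1 or more (7305 rows, 5608 of them protein-coding genes matched by locus tag), in the two-sided edgeR 4.0.16 quasi-likelihood test in R 4.3.3, with TMM scaling and without covariates. Benjamini-Hochberg adjustment covered the 7305 rows, and 0.05 was the threshold. The standard error (SE) of a log2 fold change is its size over the square root of F. The alternatives used limma 3.58.1 on log2(TPM + 1), DESeq2 1.42.0, other scalings and filters, a replicate block, and fits that each lacked 1 library. Ratios, shares and percentiles were set against each other by two-sided exact permutation, which cannot go below p = 0.1. The edgeR test was checked on simulated counts for quiescent against log over 7305 rows. It recovered 44% of 100 genes changed by 1 on the log2 scale and 98% of 100 changed by 2. That simulation gave all rows the same dispersion and left all other rows unchanged. In the data 31.8% of genes rose and 41.0% fell, so these recoveries do not measure the power of the comparison itself. The labels call the replicates biological. The members and the gene lists were chosen with earlier results of these data known. All 9 members are named, and from each list the 2 risen and 2 fallen genes of largest change whose higher group reached 10 TPM, with further named genes from the regulator lists. ADH5, CYC1, CYC7 and ERT1 were named after their values were seen. Sequences were read from the R64 reference with pysam 0.24.0.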

Additional observations from a re-analysis of the deposited data

How the results depend on the processing

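The rises of SIP4, CAT8, ADR1 and HAP2 kept their direction and their call in every alternative in which the gene was tested. Those of RDS2, HAP4 and HAP5 kept theirs wherever they were tested, except in limma on log2(TPM + 1), where they were 0.60, 0.37 and 0.18. In that setting HAP1 reversed to -0.73, 4 members rose and 2 fell. The filter of 10 TPM left 4 members to test, ADR1, SIP4, HAP1 and HAP4, and all 4 rose. With limma the Hap complex list had 5 risen and 22 fallen, the Hap1 list 3 risen, the glucose repression list 1 risen and 11 fallen, and the other factors 5 risen and 2 fallen. With the filter of 10 TPM, which tests fewer genes, 9 Hap complex targets and 4 glucose repression genes fell, and 4 other factors rose. The median of the Hap complex list reversed with total-count scaling (-0.20), limma (-0.95) and no filter (-0.10). That of the glucose repression list reversed with total-count scaling (-0.09), limma (-0.77), no filter (-0.02), the filter of 10 TPM (-0.18) and without quiescent replicate 2 (-0.04); leaving out single libraries gave it -0.04 to 0.27. The HAP4 ratio reversed with raw counts (-0.06) and against HAP2 alone (-0.85). Leaving out single libraries ended no member's call. Deviations of same-numbered libraries from their group means correlated at 0.124, -0.149 and -0.170 over rows, beside -0.155 to 0.258 for different numbers. With 3 libraries per group these correlations depend on each other, so they cannot decide whether the libraries were paired. With the replicate block 7 members rose and 0 fell as before. The cause of these shifts was not tested. SIP4 in log cells had 34 to 77 reads per library, and HAP3 and HAP5 had at most 135 reads in any library, which limits the precision of their values.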
